A study of Homo sapiens with 6 samples.

Results

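Aldehyde dehydrogenases are a family of enzymes that oxidise aldehydes to carboxylic acids with NAD+ or NADP+. The 10 genes described here are ALDH3A1, ALDH1A1, ALDH1A3, ALDH1B1, ALDH2, ALDH3A2, ALDH4A1, ALDH5A1, ALDH6A1 and ALDH7A1. These encode some of its cytosolic, microsomal and mitochondrial members, and were found by gene symbol among the 57500 genes that were counted. They were chosen by family name with their changes between glycine and vehicle in these same 6 libraries already known, so those changes are given as a description. RNA was sequenced from HepG2, a human hepatocarcinoma cell line labelled as wild type, after 24 h with vehicle or with glycine (10 mM). There were 6 libraries, 3 per group, named as independent replicates in the series design. Both groups came from this 1 line, whose medium was replaced at the start of treatment. The paper states that its standard medium already contains glycine, so the 10 mM was added to that and vehicle was not free of glycine.

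The liver is rich in these enzymes. In the cytosol, ALDH1A1 and ALDH1A3 turn retinaldehyde into retinoic acid, and ALDH3A1 oxidises aromatic and lipid-derived aldehydes. In mitochondria, ALDH2 and ALDH1B1 oxidise acetaldehyde, while ALDH4A1, ALDH5A1 and ALDH6A1 each complete a step in the breakdown of an amino acid or a related compound, and ALDH7A1, found in several compartments, does so for lysine.

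The promoters of 3 members are shown because these genes differed in how they moved: ALDH1A1 was lower with glycine, ALDH6A1 was lower without passing the test, and ALDH7A1 overlapped between the groups. Each sequence is the 250 bases before a RefSeq transcript start (GRCh38.p14), on the gene's own strand, here the minus strand for all 3. Capitals mark CCAAT or its reverse complement ATTGG, the core of the CCAAT box, a common promoter element.
ALDH1A1, chr9:72953054-72953303: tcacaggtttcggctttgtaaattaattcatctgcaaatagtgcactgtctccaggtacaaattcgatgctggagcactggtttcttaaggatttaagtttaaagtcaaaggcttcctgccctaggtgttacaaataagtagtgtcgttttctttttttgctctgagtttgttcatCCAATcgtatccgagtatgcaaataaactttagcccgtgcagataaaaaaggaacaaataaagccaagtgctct
ALDH6A1, chr14:74084454-74084703: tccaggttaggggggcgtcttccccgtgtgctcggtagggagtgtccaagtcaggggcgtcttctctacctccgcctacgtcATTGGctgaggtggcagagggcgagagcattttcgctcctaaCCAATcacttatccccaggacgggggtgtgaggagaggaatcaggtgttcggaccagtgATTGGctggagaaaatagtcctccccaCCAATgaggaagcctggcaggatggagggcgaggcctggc
ALDH7A1, chr5:126595220-126595469: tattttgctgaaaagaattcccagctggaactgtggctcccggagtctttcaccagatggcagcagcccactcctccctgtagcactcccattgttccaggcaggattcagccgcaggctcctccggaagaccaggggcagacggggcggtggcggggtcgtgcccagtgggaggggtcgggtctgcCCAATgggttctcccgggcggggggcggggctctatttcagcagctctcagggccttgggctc
The ALDH6A1 window held 4 matches and the other 2 windows held 1 each. The GC content was 38.4% for ALDH1A1, 59.6% for ALDH6A1 and 64.0% for ALDH7A1.

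Windows were matched by symbol for 8 of the 10 members, 10 windows in all, and 14 of the 19 family genes counted here had at least 1. No window of ALDH3A1 or ALDH2 was used. CCAAT, on either strand, was in 6 of the 10 member windows and in 32.0% of 35116 windows of the same length. GCGTG, the core of the xenobiotic response element bound by the aryl hydrocarbon receptor, was in 3 of 10 against 32.2% of all windows. TGGAAA, a tonicity element core, was in 2 of 10 against 18.0%. The antioxidant response element core TGACNNNGC was in 0 of 10 against 10.9%. Of these motifs, only CCAAT had matches in the 3 sequences shown. A match describes letters in the window and is not a measured binding site.

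The libraries held between 31795489 and 58815986 counts. A level is given in CPM, counts scaled to a common library size, with scaling factors from TMM, a trimmed mean method. Against the unscaled library totals, 1 count was worth 0.017 to 0.0315 CPM. The line was checked against markers. All 8 hepatocyte markers listed had a mean of at least 10 CPM, and their sum ranged from 27259 to 31385 CPM with vehicle and from 23669.9 to 27257 CPM with glycine, with 0 called higher and 2 (APOA1 and TTR) called lower. Of 10 markers of other cell types, 7 were counted in every library. Their sum was 867 to 930.0 CPM with vehicle and 1090.1 to 1141 CPM with glycine, with 3 called higher and 3 lower. The 3 of that list at 10 CPM or more moved in different directions. KRT19, a biliary keratin, went from a mean of 600.3 to 854 CPM and was called higher. SOX9, a progenitor factor (269.8 to 225 CPM), was called lower. The mesenchymal PDGFRB (26.9 CPM with vehicle and 16.0 to 18.0 CPM in the glycine libraries) was also called lower. COL1A1, a mesenchymal marker under 10 CPM, went the other way, from a mean of 2.15 to 4.38 CPM. Its log2 change was 1.03 ± 0.151 (edgeR adjusted p = 0.000585), so the mesenchymal markers did not move together. The leukocyte gene PTPRC was at most 0.086 CPM and the macrophage gene MARCO had 0 counts in all libraries. CD68, another macrophage gene, was counted in every library and went from a mean of 1.33 to 2.07 CPM. It was called higher (log2 change 0.63 ± 0.164, edgeR adjusted p = 0.0226), but in only 1 of the 6 fits that left out a library. Other genes cover 85.8% of its exon length. The part of these shifts in the results below was not tested. In bulk RNA of this line, a change in how many cells express a gene and a change per cell cannot be told apart.

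With glycine, ALDH3A1 was higher, and ALDH1A1 and ALDH2 were lower (edgeR quasi-likelihood test across all genes, adjusted p under 0.05). Of the 10 members, 9 passed the filter on low counts, 1 was called higher, 2 were called lower and 6 were not called. Across the 15492 genes tested, 13.3% were called, 6.71% higher and 6.54% lower. The CPM of the groups did not overlap for 8 of the 9 members, and for 31.6% of all genes tested. Nothing is read from these shares, since the members were chosen with the comparison known. Without vehicle replicate 3, 2 members were called higher, and without glycine replicate 1 or glycine replicate 3, 1 was called lower. The median log2 change of the 9 members was -0.18, with 3 above and 6 below 0, while that of all genes tested was 0.00. Their median absolute log2 change was 0.20, against 0.14 over all genes tested.

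ALDH3A1 (ENSG00000108602) lies on chromosome 17 from 19737984 to 19748943, on the minus strand of GRCh38. It oxidises aromatic and medium-chain aldehydes, is abundant in the cornea, and its transcription is known to respond to the aryl hydrocarbon receptor. Its level was 10.1, 12.6 and 10.5 CPM in the vehicle libraries and 21.2, 21.8 and 18.7 CPM in the glycine libraries. Every glycine library was above every vehicle library. The group means were 11.1 ± 1.31 and 20.6 ± 1.66 CPM (SD, n = 3). The log2 change was 0.89 ± 0.0974 (s.e.; 95% interval 0.68 to 1.10; edgeR adjusted p = 5.54e-05). By p-value it ranked 120 among all genes tested. It was called without each library in turn, with edgeR adjusted p between 3.38e-05 and 0.000479.

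ALDH1A1 (ENSG00000165092, chromosome 9, 72900662 to 73080442, minus strand) makes retinoic acid from retinaldehyde and was the most abundant member. Its vehicle libraries were at 793, 874 and 780 CPM and its glycine libraries at 639, 654 and 587 CPM. The groups did not overlap. Group means were 816 ± 50.7 and 627 ± 35.0 CPM (SD, n = 3). The log2 change was -0.38 ± 0.0752 (95% interval -0.54 to -0.22; edgeR adjusted p = 0.00513). The call was kept without each library in turn (edgeR adjusted p 0.00618 to 0.0295). ALDH1A3 (ENSG00000184254, chromosome 15, 100877714 to 100916626, plus strand), the other retinaldehyde enzyme among the members, was nearly silent. It had 1, 0 and 0 counts with vehicle and 1, 2 and 3 with glycine. All are at or under a floor of 3 counts per library, so no fold is given, and other genes cover 28.6% of its exon length.

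**Figure D1:**
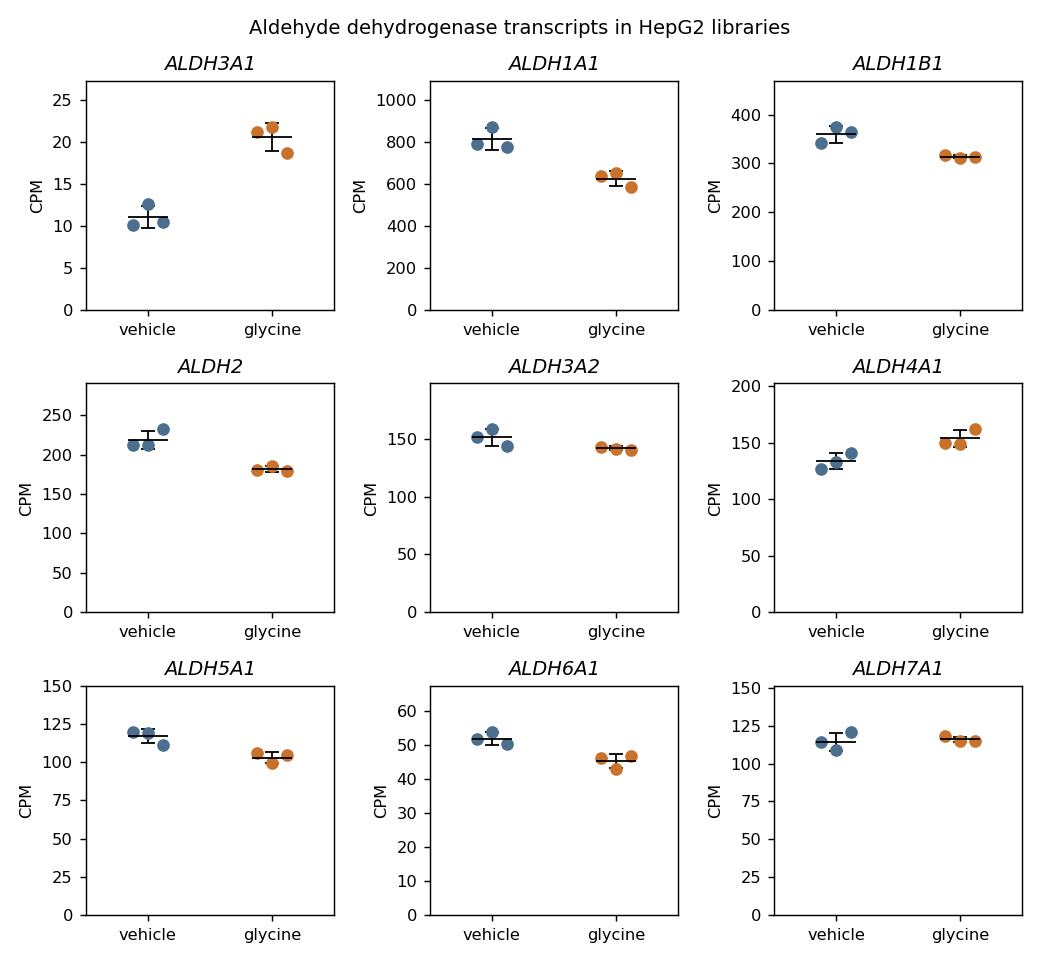
CPM of the 9 tested members in each library (y axes start at 0), with vehicle and glycine libraries as points and the mean ± SD (n = 3) beside them. The glycine points of ALDH3A1 (18.7 to 21.8 CPM) lie above all vehicle points, those of ALDH1A1 (587 to 654 CPM) lie below, and the 2 groups overlap for ALDH7A1.

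The mitochondrial acetaldehyde enzymes were both lower, and 1 of them passed the test. ALDH2 (ENSG00000111275, chromosome 12, 111766887 to 111817529, plus strand), the main enzyme of acetaldehyde clearance after ethanol, was at 212, 212 and 232 CPM with vehicle and 181, 186 and 179 CPM with glycine. The groups did not overlap. Its log2 change was -0.26 ± 0.0629 (95% interval -0.40 to -0.13; edgeR adjusted p = 0.0149). The call was lost without glycine replicate 1 (edgeR adjusted p = 0.0595) or without glycine replicate 3 (0.0596). ALDH1B1 (ENSG00000137124, chromosome 9, 38392664 to 38398661, plus strand), which also oxidises acetaldehyde, was at 341, 375 and 364 CPM with vehicle and 317, 311 and 313 CPM with glycine. Its log2 change was -0.20 ± 0.0639 (95% interval -0.34 to -0.06; edgeR adjusted p = 0.0581). These libraries did not overlap either. It was past the threshold with the DESeq2 Wald test (adjusted p = 0.0216), with limma and voom (0.0493) and with edgeR without vehicle replicate 1 (0.0469).

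ALDH3A2 (ENSG00000072210, chromosome 17, 19648136 to 19677598, plus strand) is the microsomal fatty aldehyde dehydrogenase, whose loss causes Sjögren-Larsson syndrome. It ranged from 144 to 158 CPM with vehicle and from 140.1 to 143 CPM with glycine. The groups were apart in CPM but overlapped in TPM, a scale per gene length. The change was -0.10 ± 0.0608 on the log2 scale (95% interval -0.23 to 0.03; edgeR adjusted p = 0.338). ALDH3A2 and ALDH3A1 are neighbours on opposite strands, 60.4 kb apart. In the 100 kb on either side of the pair, a window chosen after the values were seen, 4 genes were tested and 1, ALDH3A1, was called. SLC47A2, an organic cation transporter gene between the pair, was at most 0.342 CPM. SLC47A1, a related transporter, had a log2 change of -0.12 ± 0.0617 (edgeR adjusted p = 0.224), and ULK2, a kinase gene at most 0.631 CPM, one of -0.50 ± 0.335 (0.371).

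The mitochondrial members of amino acid breakdown had small changes in different directions, and none passed the test. ALDH4A1 (ENSG00000159423, chromosome 1, 18871430 to 18902781, minus strand), which makes glutamate from the proline intermediate pyrroline carboxylate, was at 127, 133 and 141 CPM with vehicle and 150, 149 and 162 CPM with glycine. The glycine libraries were the higher ones, without overlap. Its log2 change was 0.20 ± 0.065 (95% interval 0.06 to 0.34; edgeR adjusted p = 0.0602). It was past the threshold with libraries scaled to their total counts (edgeR adjusted p = 0.0486) and without vehicle replicate 3 (0.0425), and another gene on the same strand covers 41.1% of its exon length.

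ALDH5A1 (ENSG00000112294, chromosome 6, 24494852 to 24537207, plus strand) oxidises succinic semialdehyde, the last step of GABA breakdown. It was at 111 to 120 CPM with vehicle and 99.3 to 106 CPM with glycine. Its log2 change was -0.18 ± 0.0613 (95% interval -0.31 to -0.05; edgeR adjusted p = 0.0739). ALDH6A1 (ENSG00000119711, chromosome 14, 74056850 to 74084493, minus strand) oxidises methylmalonate semialdehyde in the breakdown of valine and pyrimidines. It was at 50.3 to 54.0 CPM with vehicle and 43.1 to 46.8 CPM with glycine. For this gene the log2 change was -0.20 ± 0.0648 (95% interval -0.34 to -0.06; edgeR adjusted p = 0.0618). Neither gene overlapped between the groups. ALDH7A1 (ENSG00000164904, chromosome 5, 126531200 to 126595418, minus strand) oxidises aminoadipic semialdehyde from lysine and also betaine aldehyde. Its libraries were at 114, 109 and 121 CPM with vehicle and 118, 115 and 115 CPM with glycine. The groups overlapped, and the log2 change was 0.02 ± 0.0617 (95% interval -0.12 to 0.15; edgeR adjusted p = 0.888).

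Levels of different genes were compared per length, in TPM, transcript abundance scaled to a common total, computed from the counts and the gene lengths in the files. With vehicle the order of mean TPM was ALDH1A1 (998 ± 46.5; SD, n = 3), ALDH1B1 (397 ± 6.96), ALDH4A1 (126 ± 5.04), ALDH3A2 (81.7 ± 3.78), ALDH2 (78.4 ± 4.36), ALDH5A1 (73.7 ± 4.24), ALDH6A1 (27.1 ± 0.955), ALDH7A1 (22.2 ± 1.49) and ALDH3A1 (9.85 ± 0.911), with ALDH1A3 last at 0.00594. The neighbours ALDH3A2 and ALDH2, and ALDH2 and ALDH5A1, overlapped in their libraries. With glycine the order of the means was the same. There the overlapping neighbours were ALDH2 (65.9 ± 1.24) and ALDH5A1 (65.8 ± 4.6), and ALDH6A1 (23.9 ± 1.92) and ALDH7A1 (22.7 ± 1.07). ALDH3A1, at 18.5 ± 1.15 TPM, stayed under all of these.

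ALDH1A1 had the largest share among the 10 members in every library. Its mean level was 55.0% of the summed TPM of the 10 members with vehicle and 50.1% with glycine. The sum was 1819, 1856 and 1768 TPM with vehicle and 1593, 1501 and 1539 TPM with glycine, without overlap. The 3 cytosolic members summed to 1008 ± 47.2 TPM with vehicle and 792 ± 31.5 TPM with glycine (SD, n = 3). Their share was 54.2-56.7% with vehicle and 49.4-52.7% with glycine. The 5 mitochondrial members, ALDH1B1, ALDH2, ALDH4A1, ALDH5A1 and ALDH6A1, summed to 703 ± 6.09 and 652 ± 33.5 TPM. Their share was 37.7-40.1% with vehicle and 40.9-44.0% with glycine. These sums are dominated by ALDH1A1 and ALDH1B1 and carry no test.

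**Figure D2:**
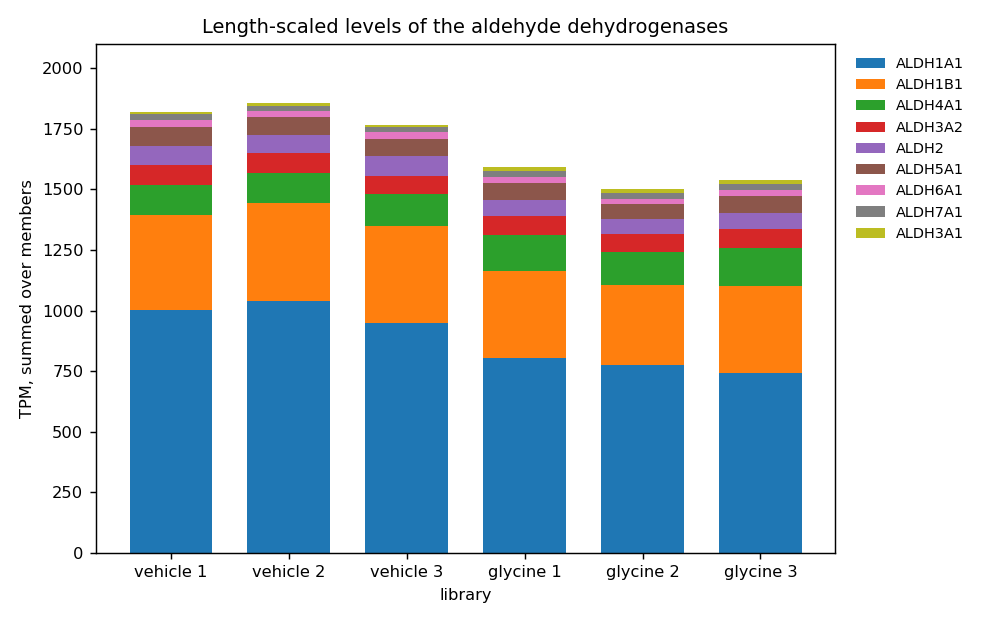
TPM of the 9 tested members stacked in each library (y axis, TPM, from 0; ALDH1A3 is left out). The total is 1768 to 1856 TPM in the vehicle libraries and 1501 to 1593 TPM in the glycine libraries, and ALDH1A1 is the largest segment in all 6.

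Among the other 9 ALDH genes, ALDH1L1 and ALDH18A1 were lower with glycine and ALDH16A1 was higher. Of the 9, 8 were tested, 1 was called higher, 2 were called lower and 5 were not called, and their median log2 change was -0.07. The share called over all genes tested was 13.3%. ALDH1L1 (ENSG00000144908), which releases the formyl group of formyl-tetrahydrofolate as carbon dioxide, was at 65.2, 74.2 and 69.1 CPM with vehicle and 44.7, 44.5 and 38.5 CPM with glycine. Its log2 change was -0.71 ± 0.0765 (edgeR adjusted p = 5.21e-05). ALDH18A1 (ENSG00000059573), which makes pyrroline carboxylate from glutamate for proline and ornithine synthesis, was at 531, 584 and 517 CPM with vehicle and 358, 336 and 327 CPM with glycine. With glycine it was lower, by -0.68 ± 0.0716 on the log2 scale (edgeR adjusted p = 4.12e-05). The groups of both genes did not overlap, as was so for 31.6% of all genes tested. ALDH16A1 (ENSG00000161618) was higher, at 66.7, 71.5 and 72.2 CPM with vehicle and 89.6, 88.5 and 85.2 CPM with glycine, a log2 change of 0.32 ± 0.0617 (edgeR adjusted p = 0.00404). All 3 were called without each library in turn.

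The remaining tested family genes were not called. The log2 change was -0.27 for ALDH1L2 (edgeR adjusted p = 0.195), the mitochondrial counterpart of ALDH1L1, and -0.10 for ALDH9A1 (0.365), which acts in carnitine synthesis. It was -0.05 for ALDH3B1 (0.739), an enzyme of lipid-derived aldehydes, 0.07 for ALDH8A1 (0.654), an enzyme of the kynurenine pathway, and 0.34 for ALDH1A2 (0.536), another retinaldehyde enzyme. ALDH3B2 had at most 1 count in any library.

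**Figure D3:**
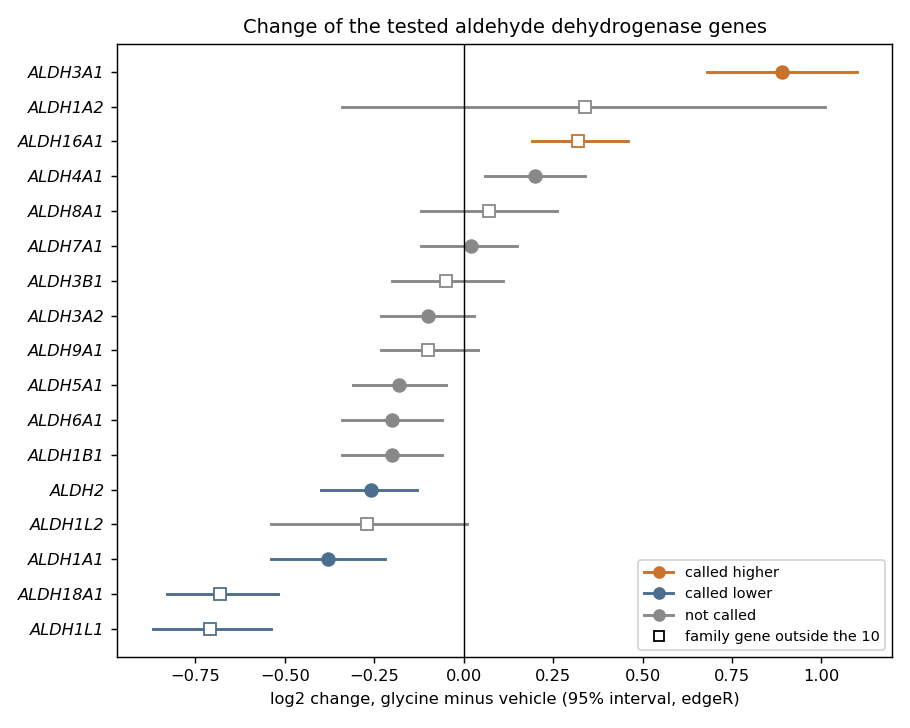
Log2 change (glycine minus vehicle, x axis) with its 95% interval for the 17 tested ALDH genes, with filled circles for the 10-gene group, open squares for the other family genes and colours for genes called higher, called lower or not called. ALDH3A1 (0.89) is farthest to the right, and ALDH1L1 (-0.71) and ALDH18A1 (-0.68) are farthest to the left.

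The other genes of the pathways in which the members act were taken from 7 lists of 116 genes, of which 94 were tested. Of these, 8 were called higher, 16 were called lower and 70 were not called, and the median was -0.04 on the log2 scale. Over all genes tested, 6.71% were called higher and 6.54% lower, the shares to set beside each list below. The lists were chosen with earlier results of these data known, so nothing is read from their counts. The count called higher was 3 without vehicle replicate 1 or glycine replicate 2, 4 without glycine replicate 1 and 5 without glycine replicate 3, and that called lower was 8 without glycine replicate 1 and 10 without glycine replicate 3. The retinoid list, around ALDH1A1 and ALDH1A3, had 1 of 16 tested genes called higher and 2 lower, with a median of -0.02. RXRA, the partner of the retinoic acid receptors, fell (log2 change -0.28 ± 0.0659; edgeR adjusted p = 0.0148), as did the retinal reductase gene DHRS4 (-0.23 ± 0.0668; 0.0367). DHRS4 has near-identical paralogs and an antisense gene over 14.4% of its exon length, so its value is uncertain. RXRA lost its call without glycine replicate 3 (edgeR adjusted p = 0.0691), and DHRS4 was called in 1 of the 6 fits that left out a library.

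The aryl hydrocarbon receptor list, around ALDH3A1, had 2 of 8 tested genes called higher and 1 lower, with a median of 0.04. AHR, the receptor itself, was at 26.5, 21.5 and 24.8 CPM with vehicle and 34.1, 33.2 and 41.6 CPM with glycine. The glycine libraries were all higher. The change was 0.58 ± 0.098 on the log2 scale (edgeR adjusted p = 0.00171), and other genes cover 39.2% of its exon length. CYP1A1, its classical target, rose by 0.39 ± 0.101 on the log2 scale (edgeR adjusted p = 0.0240). NQO1, a quinone reductase that is also a target, had a log2 change of -0.32 ± 0.0893 (edgeR adjusted p = 0.0330). CYP1A1 and NQO1 were each called in 3 of the 6 fits that left out a library.

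The list of alcohol and aldehyde metabolism, around ALDH2 and ALDH1B1, had 2 of 11 tested genes called higher and 1 lower, with a median of 0.05. ADH4, an alcohol dehydrogenase that also acts on retinol, was at 14.6, 14.0 and 14.3 CPM with vehicle and 37.2, 33.4 and 33.5 CPM with glycine, a log2 change of 1.28 ± 0.0737 (edgeR adjusted p = 2.39e-07). ACSS1, which activates acetate in mitochondria, was at 89.4, 89.6 and 88.4 CPM with vehicle and 52.1, 51.8 and 51.7 CPM with glycine. The 3 libraries of each group were nearly alike and the groups lay apart. AOX1, an aldehyde oxidase, had a log2 change of 0.29 ± 0.0761 (edgeR adjusted p = 0.0257) and was called in 2 of the 6 fits that left out a library.

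In the proline and GABA list, around ALDH4A1 and ALDH5A1, 12 genes were tested. The calls were 2 higher and 4 lower, and the median was -0.12 on the log2 scale. GLUL, glutamine synthetase, fell by 0.50 on the log2 scale (s.e. 0.0691; edgeR adjusted p = 0.000398), and HOGA1, of hydroxyproline breakdown, fell by 0.45 (s.e. 0.0965; 0.00842). OAT, ornithine aminotransferase, fell by 0.22 (s.e. 0.0619; edgeR adjusted p = 0.0320) and GLUD1, glutamate dehydrogenase, by 0.25 (s.e. 0.0723; 0.0362). PYCR3, a pyrroline carboxylate reductase, rose by 0.28 ± 0.0756 on the log2 scale (edgeR adjusted p = 0.0280). GLUL and HOGA1 were called without each library in turn. OAT was called in 1 of these 6 fits, and GLUD1 and PYCR3 in 2 each.

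In the valine and pyrimidine list, around ALDH6A1, 1 of 18 tested genes was called higher and 4 lower, with a median of -0.04. MCEE, methylmalonyl-CoA epimerase, fell by 0.68 on the log2 scale (s.e. 0.0946; edgeR adjusted p = 0.000377), and the mitochondrial branched-chain aminotransferase BCAT2 fell by 0.46 (s.e. 0.0932; 0.00595). PCCA, a propionyl-CoA carboxylase subunit, fell by 0.26 (s.e. 0.0708; edgeR adjusted p = 0.0284). The kinase of branched-chain ketoacid dehydrogenase, BCKDK, had a log2 change of 0.24 ± 0.0652 (edgeR adjusted p = 0.0295), and its phosphatase, PPM1K, of -0.39 ± 0.114 (0.0387) with groups that overlapped. PCCA, BCKDK and PPM1K were each called in 2 of the 6 fits that left out a library. In the lysine and choline list, around ALDH7A1, 13 genes were tested, of which 0 were higher and 1 was lower by the call. The median was 0.02, with 6 genes at an unadjusted p under 0.05 by the same edgeR test. Of all 15492 genes tested, 4225 had such a p. The gene called was BHMT, betaine-homocysteine methyltransferase (-0.45 ± 0.135; edgeR adjusted p = 0.0427), in 1 of the 6 fits that left out a library.

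In the fatty aldehyde and sphingolipid list, around ALDH3A2, 16 genes were tested, of which 0 were higher and 3 were lower by the call. The median was -0.13, with 6 genes at an unadjusted p under 0.05 by the same edgeR test, against 4225 of all 15492 genes tested. All 3 were fatty acid hydroxylases of the CYP4F cluster, whose near-identical sequences make their separate counts uncertain. The log2 change was -0.45 ± 0.078 for CYP4F11 (edgeR adjusted p = 0.00203), -0.56 ± 0.0992 for CYP4F3 (0.00237) and -0.42 ± 0.128 for CYP4F2 (0.0444). CYP4F2 was called in 0 of the 6 fits that left out a library.

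**Figure D4:**
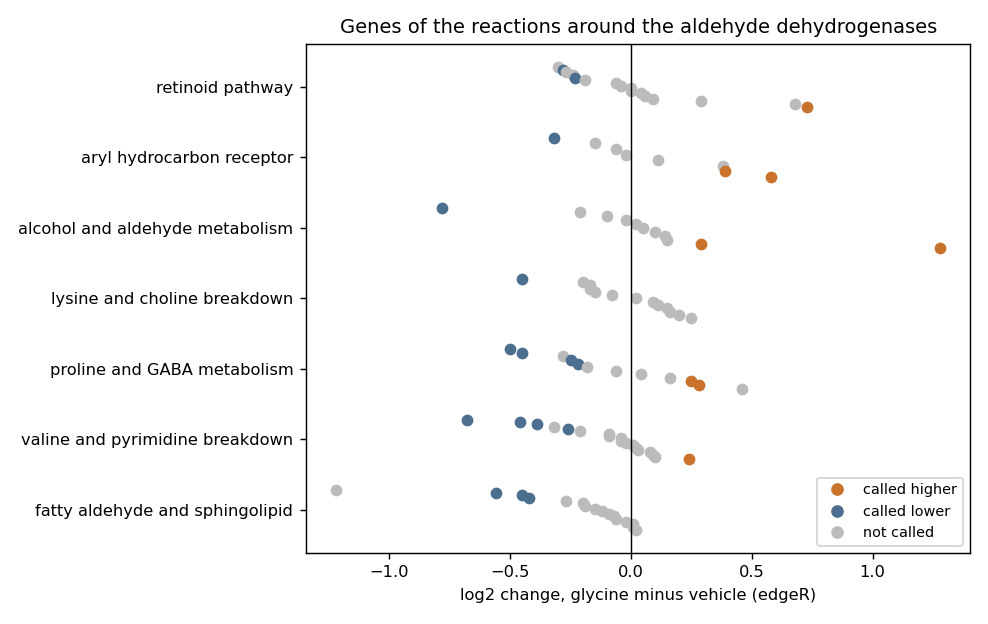
Log2 change (glycine minus vehicle, x axis) of the tested genes of the 7 pathway lists (y axis), 1 point per gene, in grey where not called and in colour where called higher or lower. The list medians lie between -0.13 and 0.05, and ADH4 (1.28) and ACSS1 (-0.78) are the extreme called genes.

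The genes whose log2 CPM followed that of ALDH3A1 most closely over the 6 libraries, of 9110 genes whose mean reached 10 CPM, were PSMD1 (Pearson r = 0.9981), UTP4 (0.9968), NUP93 (0.9958), HNRNPL (0.9952) and SECISBP2 (0.9947). They encode a proteasome subunit, a ribosome biogenesis factor, a nucleoporin, an RNA-binding protein and a selenocysteine insertion factor. These values share libraries and depth and are largely set by the difference between the groups. The log2 changes of these genes, between 0.14 and 0.31, were smaller than the 0.89 of ALDH3A1.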

How the data were processed

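RNA of 6 HepG2 libraries (3 vehicle, 3 glycine) was analysed from the deposited files, in which the authors give raw read counts per gene without normalization, 1 file per library. Per the submitters' processing notes, Trimmomatic 0.36, STAR 2.5.2b and featureCounts of Subread 1.5.2 were used with GRCh38. The annotation, the strand setting and the treatment of multiply mapped reads are not given in the sources used here, so overlapping genes and paralogs could share reads. Of 57500 genes, 56898 were in GENCODE release 29 and 56410 had a symbol. CPM, TPM and positions were computed from the files.

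Counts were modelled in edgeR 4.0.16 (R 4.3.3) and tested by its two-sided quasi-likelihood F-test, with its default expression filter (minimum count 10, minimum total 15), TMM scaling and group as the only term. Adjustment over the 15492 tested genes followed Benjamini and Hochberg, at a threshold of 0.05. The p-values set the difference between the groups against the variation among the 3 replicates of each group, which edgeR moderates across genes. The replicates of a group differed by 7.55 to 29.1 in chi-square per degree of freedom over 15593 genes, so none was a duplicate. The script was tested on simulated data. Floors of 3 counts (0.051 to 0.0944 CPM against the unscaled library totals) cover counting error only, because the reads carry no molecular identifiers.

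The members and lists were chosen with earlier results of these data known. The genes named are all ALDH genes, up to 5 called genes with the smallest p in each list, and the 5 genes closest to ALDH3A1 by Pearson correlation of log2 CPM. Others, the markers apart, were chosen after their values were seen. Some genes that enter the counts of calls are not reported here by name. Promoters were taken from RefSeq (GRCh38.p14). The alternatives were DESeq2 size factors, total count scaling, no filter beyond 1 count, limma-voom (limma 3.58.1), the Wald test of DESeq2 1.42.0, the removal of each library in turn, and a block for replicate number.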

Additional observations from a re-analysis of the deposited data

How the results depend on the processing

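The members called higher numbered 2 with total count scaling (1 in the report), and with a library left out 1 to 2 were called higher and 1 to 3 lower. Over all genes, leaving out a library gave 587 to 926 called higher and 655 to 1010 lower, with the fewest higher without glycine replicate 3 and the fewest lower without glycine replicate 2, the deepest library. For the pathway genes it gave 3 to 7 higher and 8 to 13 lower. Of 29 named genes that were called, 14 lost the call in at least 1 alternative. ALDH7A1 turned to a log2 change of -0.02 without vehicle replicate 2 and of -0.0032 without glycine replicate 1, within a range of -0.02 to 0.06 over the libraries left out. With total count scaling the median of all genes was 0.018 and with DESeq2 size factors -0.003.

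Deviations of libraries with the same replicate number correlated at -0.0577, -0.0268 and -0.00258, so the numbers were not read as pairs. A replicate block gave 866 genes called higher and 918 lower, with 1 higher and 2 lower among the members. Under it the calls of OAT, GLUD1 and CYP4F2 were lost (edgeR adjusted p 0.0652, 0.0649 and 0.0623).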
